A study of Mus musculus with 6 samples.

Results

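Type II cadherins are cell surface adhesion molecules that hold neurons of like identity together. They bind through a first extracellular repeat that carries a pair of conserved tryptophans, and they fall into groups whose members bind within the group: Cdh6, Cdh9 and Cdh10 form such a group, Cdh8 and Cdh11 belong to another, and Cdh7, Cdh12, Cdh18, Cdh20 and Cdh22 to a further one. In the embryonic spinal cord, motoneurons that innervate different muscles carry different combinations of these genes, and the combinations take part in the sorting of motoneuron cell bodies into columns and pools. Inside the cell the cadherin tail is tied to actin through catenins.

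The 10 genes described here were taken by name, as every probe set annotated with exactly that symbol. This gave 18 probe sets of 45037, for 9 of the 10 genes (Cdh12 was not analysed here). RNA came from GFP-positive motoneuron regions of the cervical spinal cord of 3 littermate mouse embryos at E11.5. All carried the HB9::GFP transgene, in which a motoneuron promoter drives the fluorescent protein, and no other genotype or treatment was compared. Left and right regions were taken by laser capture from the same 12 µm sections, so that each embryo gave 1 left and 1 right pool, and each pool was hybridised to its own Affymetrix array. The question behind the design is whether motoneurons of the left and right side differ in gene expression. A captured region also holds other cells beside motoneurons, and in such bulk RNA fewer cells of a type and less RNA per cell cannot be told apart.

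The pools were checked against marker genes. All 10 motoneuron genes (Mnx1, Isl1 and Chat among them) and all 5 genes of phrenic and cervical motoneurons reached a signal of 200 in at least 1 pool, the limit used below, and none of these 15 genes met the rule for a side difference. By contrast, 9 genes of other organs never exceeded 69.9. The right pool of embryo 1 stood apart: its summed signal over 15 mesenchyme genes was 19811 against 1608 to 3421 in the other 5 pools, with 10 of the 15 reaching 200 somewhere, and its sum over 7 skeletal muscle genes was 6212 against 177 to 359. Sums over 8 endothelial genes lay between 1487 and 2837, and sums over 8 progenitor genes between 9085 and 13797. Single progenitor genes were less even: Sox2 read 26.3 and 193 in the left and right pool of embryo 1 and 443 to 964 in the other embryos. Vim, the largest part of the progenitor sum, ran from 4476 to 6820. Sums over 5 floor plate genes lay between 922 and 1799. Among them Shh read 4.81 in the left pool of embryo 2 and 263 to 1364 in the other 5 pools. Ntn1 and Spon1 of the same list were not lowest in that pool. Xist, the RNA of the inactive X chromosome, read 13416 and 12058 in the left and right pool of embryo 2 and at most 5.57 in the other embryos.

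In the mouse genome most of these genes lie beside each other. Cdh6, Cdh9, Cdh10, Cdh12 and Cdh18 follow in this order on chromosome 15 of the RefSeq annotation, with 0 protein coding genes between neighbours from Cdh6 to Cdh12 and 1 between Cdh12 and Cdh18. Cdh20 and Cdh7 share chromosome 1, with 21 coding genes between them, and Cdh8 and Cdh11 are direct neighbours on chromosome 8, while Cdh22 lies on chromosome 2. The sequences shown are the 250 bases before the annotated start of the 3 genes on which the results turn (Cdh7, the call between sides, and Cdh9 and Cdh10, the widest ranges over the pools), given from RefSeq on GRCm38.p6, plus strand, 5′ to 3′; capitals mark the only motif match among them. For Cdh7, which has 3 annotated starts, the first is shown (chr1:109982650-109982899). That of Cdh9 is chr15:16728665-16728914 and that of Cdh10 is chr15:18820079-18820328.
Cdh7: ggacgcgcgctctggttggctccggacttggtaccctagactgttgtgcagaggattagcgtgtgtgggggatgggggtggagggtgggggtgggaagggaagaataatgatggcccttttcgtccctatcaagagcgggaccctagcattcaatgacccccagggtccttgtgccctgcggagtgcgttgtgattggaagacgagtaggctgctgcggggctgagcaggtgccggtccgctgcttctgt
Cdh9: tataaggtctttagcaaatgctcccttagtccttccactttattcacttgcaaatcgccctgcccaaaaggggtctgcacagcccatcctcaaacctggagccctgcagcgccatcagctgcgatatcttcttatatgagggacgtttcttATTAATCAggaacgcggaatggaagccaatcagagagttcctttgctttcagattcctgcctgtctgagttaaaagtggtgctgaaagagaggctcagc
Cdh10: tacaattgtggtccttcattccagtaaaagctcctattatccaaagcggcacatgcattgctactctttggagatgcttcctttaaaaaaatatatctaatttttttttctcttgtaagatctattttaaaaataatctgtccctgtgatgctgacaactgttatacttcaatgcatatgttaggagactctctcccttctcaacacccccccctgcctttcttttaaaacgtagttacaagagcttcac
Although Cdh9 and Cdh10 are neighbours, the windows differ in composition. Their GC content was 48% and 36.8%, against 60.8% for Cdh7, and only 6.74% of 32851 promoter windows had a lower GC content than that of Cdh10. In Cdh9 the capitals read, on the other strand, TGATTNAT, a Hox-Pbx motif that 2.82% of all windows held on either strand. It was absent from the other 10 windows of these genes. TAATTA, a homeodomain motif held by 4.84% of windows, was found in 1 of 11, the third window of Cdh7. The POU octamer ATGCAAAT (1.6% of windows) and TATAAA (12.4%) were found in 0 of 11. Cdh11 had no window in the table.

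Of the 18 probe sets, 11 reached a signal of 200 in at least 1 pool and were tested. They belong to 6 genes: Cdh6, Cdh7, Cdh9, Cdh10, Cdh11 and Cdh22. The other 7 stayed below that limit in every pool, and Cdh8, Cdh18 and Cdh20 had no probe set above it. Signals are linear MAS5 intensities in arbitrary units; probe sets differ in how well they bind their target, so that a level is compared only with the same probe set in another pool.

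**Figure D1:**
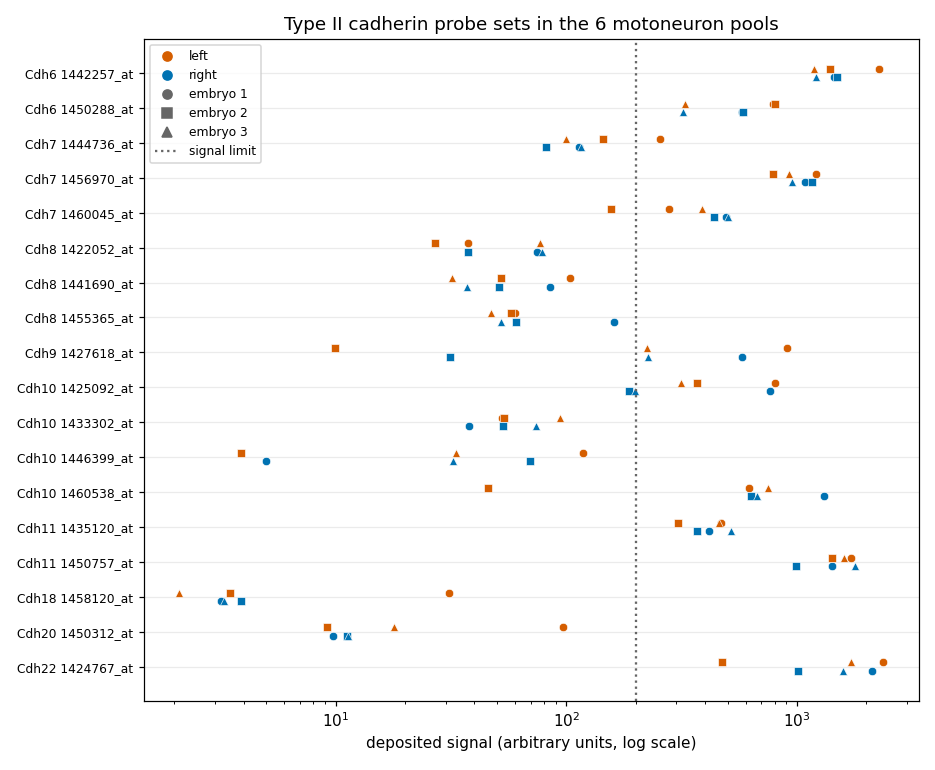
Deposited signal of each of the 18 probe sets in the 6 pools, on a log axis in arbitrary units, with colour for the side, symbol for the embryo and a dotted line at the limit of 200. Signals span 2.10 to 2367 over all probe sets, and within 1 probe set the widest span is that of Cdh9, from 9.95 to 909, whose embryos lie apart.

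For each probe set the log2 ratio of right over left was taken within each embryo. The study's methods call a side difference where the ratio has the same sign in all 3 embryos and exceeds 0.58 on the log2 scale (1.5-fold) on average and in at least 2 of them. The study also asked for a present call in at least 1 sample per embryo. Detection calls were not used here, so the rule applied is looser than the study's. By the rule without these calls, 1 of the 11 tested probe sets was higher on the right, against 2.4% of all 21853 tested probe sets. On the left 0 were higher, against 1.55%. With limma, in which side and embryo were terms, 0 passed an adjusted p of 0.05 (0% of all tested), and the adjusted p of the 11 lay between 0.974 and 0.986. At an unadjusted p under 0.05, 2 of 11 passed, against 3.4% of all. Across the 11 the mean log2 ratio ranged from -0.59 to 1.56 (the highest resting on 1 pool at a low signal), being above 0 in 6 and below 0 in 5, with a median of 0.09 against 0.02 over all tested probe sets. The sign was the same in all 3 embryos for 3 of 11, against 23.5% of all.

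**Figure D2:**
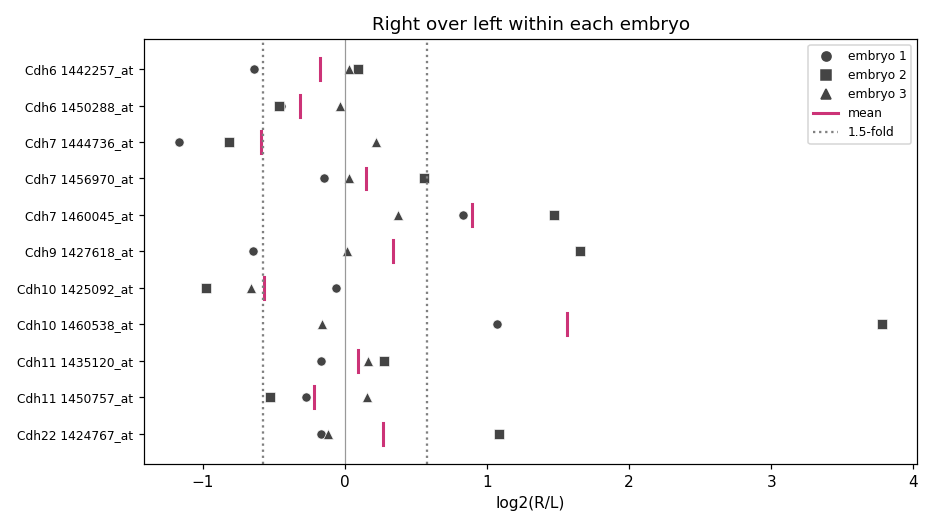
Log2 of right over left within each embryo for the 11 tested probe sets, with the mean as a bar and dotted lines at 1.5-fold. Only Cdh7 1460045_at has its mean beyond the right line with all 3 embryos above 0; the mean of Cdh10 1460538_at lies farther right, but embryo 3 falls below 0. The embryo 2 points of Cdh9 and Cdh10 1460538_at involve signals under 69.9 and have no exact size.

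Cdh6, Cdh9 and Cdh10 bind one another, and each was detected above the limit. Cdh6, which marks subsets of motoneurons and hindbrain and kidney cells, was bright in every pool. Its brightest probe set, 1442257_at, read 2261, 1395 and 1185 in the left pools of embryos 1, 2 and 3 and 1449, 1487 and 1209 in the right pools. The sides overlapped, and the mean log2 ratio was -0.17 ± 0.41 (SD, n = 3). The other probe set, 1450288_at, was lower on the right in all 3 embryos, with log2 ratios of -0.45, -0.46 and -0.03. Its mean of -0.31 ± 0.24 stayed within the fold limit.

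Cdh9 was the only member past the threshold between embryos. Its probe set 1427618_at read 909, 9.95 and 224 in the left pools of embryos 1, 2 and 3 and 579, 31.3 and 226 in the right pools. Both pools of embryo 1 were thus the highest and both of embryo 2 the lowest, and the embryos did not overlap. An F test over the embryo terms of the limma fit gave an adjusted p of 0.0415, and this was 1 of 11 tested probe sets, against 0.27% of all 21853. Since the values of embryo 2 lay within the range of the other-organ genes (up to 69.9), no fold is given against it; embryo 1 was 3.22-fold higher than embryo 3 (a geometric mean of the pools). Cdh9 had no common side difference. It was lower on the right in embryo 1, with a log2 ratio of -0.65, and near 0 in embryo 3, at 0.02, while in embryo 2 both sides were within the other-organ range and their ratio has no exact size. The mean, 0.34 ± 1.19 (SD, n = 3) with embryo 2, was -0.32 without it and -0.05 with 50 added to each signal. The test between embryos speaks of these 3 animals and of no condition. The call was lost, among other settings, with variances moderated without a trend (adjusted p 0.213), where 0 of all tested probe sets passed. It was also lost without embryo 1 (0.193), where 1067 of all passed, and without embryo 3 (0.0909), where 12 did. It held without embryo 2 (0.000533), where 1291 of all passed, and with 50 added to each signal, which damps low values (0.0164). Over the alternatives that kept both pools of each embryo used, the adjusted p ranged from 0.000533 to 0.213.

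Of the motoneuron markers, 1 of 10 motoneuron genes (Prph) and 1 of 5 phrenic and cervical genes (Alcam) passed between embryos, against 0.27% of all tested probe sets. The summed signal of the 10 motoneuron genes was 44477 and 43819 in embryo 1 and 26409 to 35455 in the other embryos. Prph was its largest part. The sum of the 5 phrenic and cervical genes was 20654 and 28274 in embryo 1 and 19586 to 23553 in the other embryos. Single markers ran both ways. Mnx1 was highest in embryo 1, with 5219 and 5139 against 3520 to 4160 in the other embryos (adjusted limma p 0.279 between embryos). Hoxc5 was lowest in embryo 1, with 4660 and 4375 against 5703 to 6746 in the other embryos (adjusted limma p 0.264 between embryos). Alcam, an adhesion molecule that marks phrenic motoneurons, read 1998, 705 and 492 in the left pools of embryos 1, 2 and 3 and 1922, 491 and 437 in the right pools (adjusted p 0.0284 between embryos). For Prph, the neuronal intermediate filament peripherin, the left pools read 23019, 15618 and 10514 and the right pools 23486, 14011 and 10753 (adjusted p 0.03). In both, embryo 1 was highest, as for Cdh9, but embryo 3 was the lowest. The tested probe set whose profile over the 6 pools lay nearest to that of Cdh9 was Uty, a Y-linked gene, with 923, 4.57 and 242 in the left pools and 572, 33.8 and 302 in the right ones. Their root mean square difference, after both log2 profiles were centred, was 0.486. Both genes were within the other-organ range in embryo 2, so this distance rests in part on values with no exact size. Next came Clip4 (0.61) and Aldh1a2, which makes retinoic acid in motoneurons at limb levels (0.654). Aldh1a2 read 975, 45.9 and 402 in left pools and 865, 68.5 and 352 in right pools. The adjusted p between embryos was 0.0526 for Uty, 0.211 for Clip4 and 0.0163 for Aldh1a2, all chosen for their likeness to Cdh9. Embryo 2, with high Xist and low Uty, reads as female by these genes and the others as male, though the sample titles give no sex. With 3 embryos this difference and any other between the animals cannot be told apart.

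**Figure D3:**
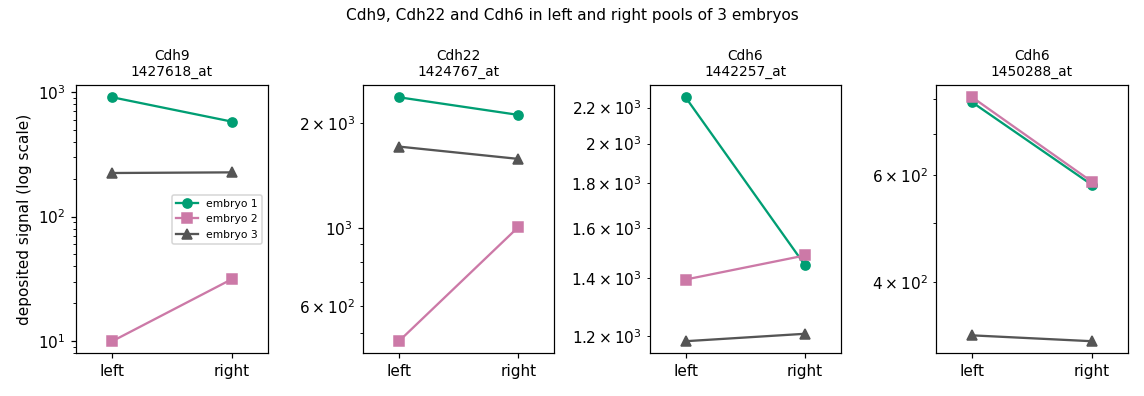
Left and right signal of Cdh9, Cdh22 and both Cdh6 probe sets, 1 line per embryo, in arbitrary units on log axes that differ between panels. In Cdh9 and in Cdh22 the 3 lines do not cross, with embryo 1 highest and embryo 2 lowest on both sides; in Cdh6 1450288_at embryo 3 is lowest.

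Cdh10 gave opposite directions in its 2 tested probe sets. The brightest, 1460538_at, read 622, 45.9 and 748 in the left pools of embryos 1, 2 and 3 and 1306, 630.0 and 669.9 in the right pools. The left pool of embryo 2 alone was below 200, within the other-organ range, and the sides overlapped. The log2 ratios were 1.07 in embryo 1 and -0.16 in embryo 3, and that of embryo 2, above both, has no exact size. The fitted mean of 1.56 ± 2.02 (SD, n = 3, adjusted limma p 0.974) rests on that pool: without embryo 2 it was 0.46. Over all probe sets of the gene the mean was 0.14, but this includes 1433302_at and 1446399_at, which stayed below 200 in every pool. The other tested probe set, 1425092_at, was lower on the right in every embryo. Left pools read 799, 369 and 314, right pools 764, 188 and 198, for log2 ratios of -0.07, -0.97 and -0.66. Its mean of -0.57 ± 0.46 lay just inside the limit of 0.58, the nearest to it from within among the 11, and its adjusted p was 0.974. In this probe set both pools of embryo 1 were above all others; between embryos the unadjusted p was 0.00156 and the adjusted p 0.108. The remaining probe sets, 1433302_at and 1446399_at, stayed between 3.90 and 118. Profiles nearest to that of 1460538_at were those of Nr2c2 (root mean square difference 0.281), Ablim1 (0.3) and Impact (0.309), and each of the 3 was also lowest in the left pool of embryo 2, at 44.9, 6.02 and 14.6, again values with no exact size.

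Cdh7, known from migrating neural crest cells as well as from motoneurons, supplied the only call by the fold rule. Its probe set 1460045_at read 278, 157 and 388 in the left pools of embryos 1, 2 and 3 and 495, 436 and 502 in the right pools. Every right pool was above the left pools of embryos 1 and 3. The left pool of embryo 2 read lower still, but at 157 it was below 200, where no order between pools is read. Mean signal was 274 ± 116 over left pools and 477 ± 36.2 over right pools (SD, n = 3). The log2 ratios were 0.83, 1.47 and 0.37, with a mean of 0.89 ± 0.55, or 1.86-fold higher on the right. The largest ratio, that of embryo 2, rests on the pool below 200, so the size of the mean is uncertain. Limma gave a standard error of 0.3, an unadjusted p of 0.0153 and an adjusted p of 0.974, and an exact two-sided sign-flip test over the 3 embryos gave 0.25, the smallest p that 3 pairs allow. The call was lost without embryo 1 or without embryo 2, and under a 2-fold limit. It rests on 1 probe set of 3. The brightest, 1456970_at, read 1204, 789.7 and 928 in left pools and 1086, 1160.3 and 947 in right pools, with overlapping sides and a mean of 0.15 ± 0.37. In 1444736_at 1 pool reached 200, the left pool of embryo 1 at 255, and the log2 ratios were -1.17, -0.82 and 0.22 (mean -0.59 ± 0.72).

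Some markers of other cells were also higher on the right. Of 8 genes of the dorsal spinal cord 4 reached the limit. Of these, 2 (Zic1 and Olig3) met the fold rule on the right, against 2.4% of all tested probe sets, and 0 on the left, against 1.55%. The summed signal of the 8 was 612, 1246 and 1155 in the left pools of embryos 1, 2 and 3 and 2438, 1915 and 1317 in the right pools. It was higher on the right in each embryo, but most of the rise in embryos 1 and 2 was Zic1 alone. Zic1 read 72.6, 24.5 and 137 in the left pools, all below 200, and 1745, 693 and 150 in the right pools. Lbx1, another of the 4, was lower on the right in each embryo, with 162, 819 and 565 against 126, 681 and 535. The dorsal genes Pax3, Pax7 and Tlx3 stayed at or under 81.3. Of 15 mesenchyme genes 10 were tested, and 3 of these met the rule on the right and 0 on the left, beside the same shares. The sum of the 15 was higher on the right in embryos 1 and 2 (19811 against 2663, and 3421 against 1608) but not in embryo 3 (3131 against 3210.0). Of 7 skeletal muscle genes, all tested, 1 (Myog) met the rule on the right and 0 on the left. Myog reached 200 only in the right pool of embryo 1, at 347. Of 8 genes of neural crest, glia and sensory neurons 5 were measured and 0 met the rule. Their sum ran from 2389 to 6671 over left pools and from 3311 to 5640 over right pools, and most of it was Fabp7 (1696 to 5722). Erbb3, below 200 in every pool, read 73.1, 35.4 and 62.2 in the left pools and 174, 65.5 and 66.2 in the right pools. Sox10, Foxd3, Pou4f1 and Fabp7 had ratios of both signs. The part of these cells in the Cdh7 difference was not tested.

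**Figure D4:**
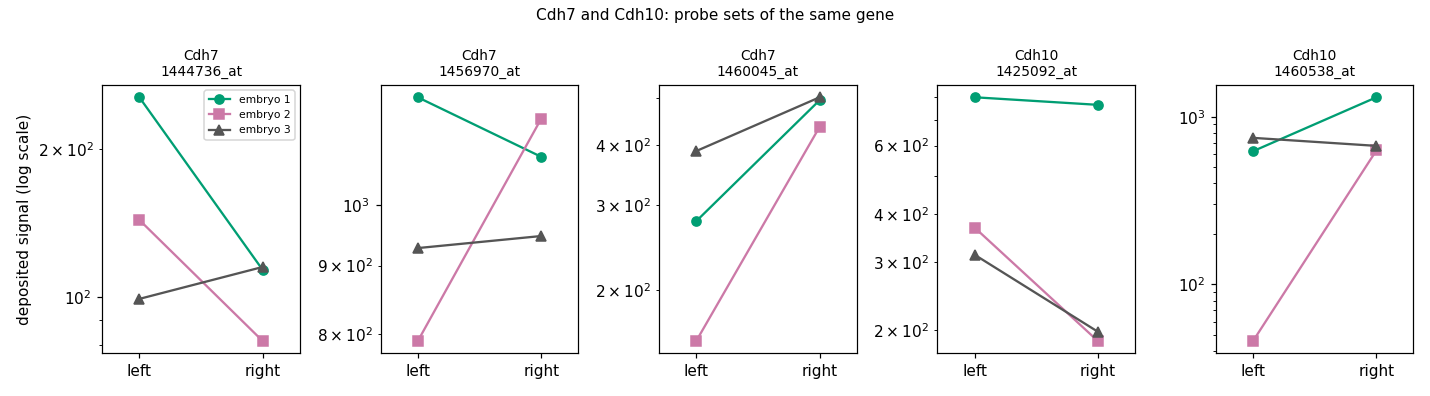
Left and right signal of the 3 Cdh7 and the 2 tested Cdh10 probe sets, 1 line per embryo, in arbitrary units on log axes that differ between panels. All 3 lines rise to the right in Cdh7 1460045_at and none does in Cdh10 1425092_at, while the other probe sets of the same genes hold lines of both directions.

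Cdh22, a cadherin of the brain and spinal cord, was bright in all 6 pools. Its probe set 1424767_at read 2367, 475 and 1710.4 in the left pools of embryos 1, 2 and 3 and 2107, 1007 and 1577 in the right pools. The sides overlapped, while the embryos did not: embryo 1 was highest and embryo 2 lowest on both sides. The mean log2 ratio was 0.27 ± 0.71 (SD, n = 3), with only embryo 2 above 0, at 1.08. Between embryos the unadjusted limma p was 0.00133 and the adjusted p 0.105. Cdh18 and Cdh20 of the same binding group stayed low. The probe set of Cdh18 read 30.9 in the left pool of embryo 1 and 2.10 to 3.90 elsewhere, and that of Cdh20, for which RefSeq also lists the older name Cdh7, read 96.9 in the same pool and 9.17 to 17.8 elsewhere. Both were thus below 200 in all pools, where no order between pools is read.

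Cdh11, which is strong in mesenchyme as well as in motoneurons, was bright in all 6 pools, and its sides overlapped in both probe sets. The brightest probe set, 1450757_at, read 1712, 1423 and 1605 in the left pools of embryos 1, 2 and 3 and 1414, 986 and 1786 in the right pools, for a mean log2 ratio of -0.22 ± 0.35 (SD, n = 3). The other, 1435120_at, ranged from 305 to 516 with a mean of 0.09 ± 0.23. In the right pool of embryo 1, where the mesenchyme sum was 19811 against 2663 on the left, Cdh11 was lower than on the left in both probe sets (1414 against 1712, and 417 against 469). This is 1 pair of pools, and the part of mesenchyme cells in the Cdh11 signal was not tested. Cdh8, of the same binding group, stayed below the limit in 3 probe sets. Its brightest, 1455365_at, read 161 in the right pool of embryo 1 and 47.3 to 60.6 in the other 5.

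**Figure D5:**
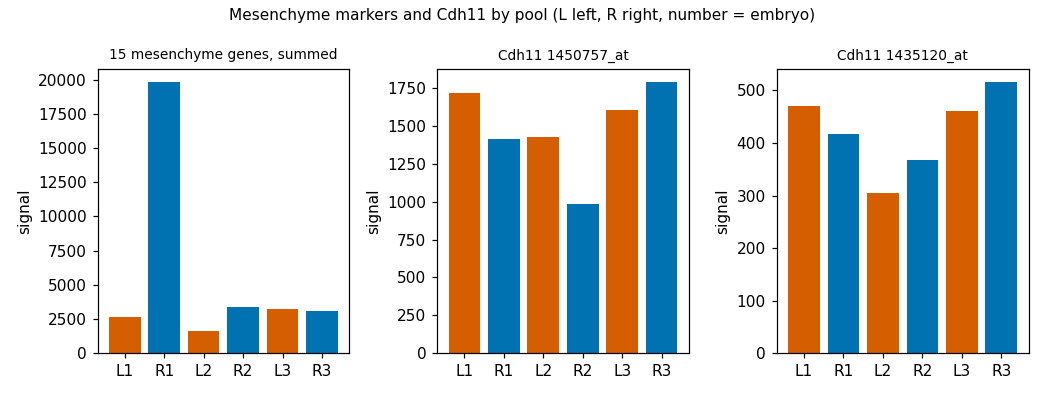
Summed signal of 15 mesenchyme genes and signal of both Cdh11 probe sets in each pool, as bars from 0 in arbitrary units (L left, R right, number for the embryo). The sum is 19811 in the right pool of embryo 1, where Cdh11 reads 1414 and 417 and is not the highest of the 6.

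Differences between embryos were set beside differences between sides. In 5 of the 11 tested probe sets the widest gap between embryo means exceeded the largest side ratio of any embryo, against 39.5% of all tested probe sets. At an unadjusted p under 0.05 between embryos, 5 of 11 passed (Cdh6 1450288_at, Cdh9, both Cdh10 probe sets and Cdh22), against 15.3% of all. In Cdh6 1450288_at embryo 3 was the low one, with 327 and 319 against 578 to 805 in the other 4 pools (adjusted p 0.153).

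The partners of these cadherins were taken as a fixed list, 1 brightest probe set per gene. Of the other type II genes, Cdh5, the endothelial cadherin, reached at most 177 and Cdh19 at most 55.5, so that 0 were tested. Of 5 type I cadherins 3 were tested, and 0 met the fold rule in either direction, with a median log2 ratio of 0.07. Cdh2, N-cadherin, the general cadherin of neurons, read 8786 to 14040 over the 6 pools, with a mean log2 ratio of 0.23 ± 0.24 (SD, n = 3). Cdh4 and Cdh15 had means of -0.08 ± 0.84 and 0.07 ± 0.39. Of 11 catenins and their partners 9 were tested and 0 met the fold rule in either direction, with a median of 0.01. The widest means were those of vinculin (Vcl), which binds actin, at -0.20 ± 0.38, and of Pkp4, a p120-like armadillo protein, at 0.20 ± 0.21, followed by p120 catenin itself (Ctnnd1, 0.12 ± 0.32) and Arvcf (-0.09 ± 0.40). At an unadjusted limma p under 0.05, 0 of the 12 passed between sides and 2 between embryos (Ctnna1 and Ctnnd2). None of these 12 genes passed limma at an adjusted p of 0.05, in the test of sides or in that of embryos.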

How the data were processed

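The authors captured GFP-positive regions by laser, amplified RNA of matching left and right pools and hybridised 6 arrays. They computed signals with MAS5 in Affymetrix Expression Console of a version the sources do not give. The table they deposited holds linear signal intensities whose trimmed mean is 500 on each array (2% left out at each end). Detection calls were not used here. MAS5 scaling fixes the mean of each array, and low signals vary widely on the log2 scale.

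Control probe sets were left out (45101 to 45037), and 21853 whose highest signal reached 200 were tested. Log2 signals were fitted in R 4.3.3 by limma 3.58.1 on side plus embryo, with a trend in the variance and Benjamini-Hochberg adjustment over all tested probe sets (threshold 0.05). The 2 pools of an embryo were paired since animal and sections were shared; their deviations from the side means correlated at 0.241, 0.215 and 0.495 in embryos 1, 2 and 3. Beside it stands the fold rule taken from the methods, without its present calls. Tables were made with Python 3.11.15.

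The members, lists and naming rules were chosen with earlier results of these data known. All members are named, each with its brightest probe set, along with any that met the fold rule; of other lists up to 4 genes with the widest mean ratio are named, and for 2 members with the widest range the 3 nearest profiles. Gene IDs of 18 of 18 probe sets matched RefSeq. Alternatives were other scalings, limits, constants, fold limits, variance priors and left-out embryos. The planned comparison of protein sequences was not run.

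On simulated data with 200 of 21853 probe sets moved between sides, limma recovered 0 at a log2 change of 1, 93 at 2 and 144 at 3, and the fold rule 168, 194 and 199. For 200 moved between embryos, limma recovered 0, 0 and 114. False calls by limma were 0, 4 and 3 between sides and 0, 0 and 1 between embryos. Those of the fold rule were not counted, so its recovery is given without its cost. The number of arrays limits the precision.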

Additional observations from a re-analysis of the deposited data

How the results depend on the processing

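The count of member probe sets past limma between sides was 0 in every alternative run. Without the replicate block, in which side is the only term and the pools are not paired, it was also 0, with an adjusted p of 0.999969 for each of the 11. The right count by the fold rule, 1 (Cdh7 1460045_at), became 0 with a 2-fold limit and 0 where the limit had to be passed in all 3 embryos; with 1 embryo left out it ranged from 0 to 2, being 0 without embryo 1 or embryo 2 and 2 without embryo 3, where Cdh10 1460538_at joined. The left count, 0, ranged from 0 to 1 (1 without embryo 1, Cdh10 1425092_at, and 1 without embryo 3, Cdh7 1444736_at). With 1 embryo left out the fold rule asked both remaining embryos to pass the limit.

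Between embryos the count, 1 (Cdh9), was 3 with median scaling, where Cdh10 and Cdh22 joined, while the count over all probe sets rose from 59 to 242. It was 0 with no limit on the signal (14 over all probe sets) and 0 with a highest signal of 500 (56 over all). It was also 0 with a mean signal of 200 (38 over all) and with variances without a trend, where 0 passed over all. With embryos or pools left out it ranged from 0 (without embryo 3) to 4 (without the right pool of embryo 1: Cdh6, Cdh9, Cdh10 and Cdh22); it was 3 without embryo 1 (without Cdh9), 3 without embryo 2, and 2 without the left pool of embryo 2. Over all probe sets these counts were 12, 2184, 1067, 1291 and 1035 in the same order, so that the members moved along with the whole table. The last pool and the right pool of embryo 1 were left out after the data were seen. Causes of these shifts were not tested. Over the alternatives that kept both pools of each embryo used, the adjusted p of Cdh9 between embryos ranged from 0.000533 to 0.213. All 63 alternative values of the members' mean log2 ratio moved by less than 1 SD, but the SDs are wide and 6 took the other sign: Cdh9 with 50 added (-0.05) and without embryo 2 (-0.32), Cdh7 (-0.06) and Cdh22 (-0.14) without embryo 2, and Cdh6 (0.06) and Cdh18 (0.40) without embryo 1. The 3 pairs limit every test, and signals under 200 give no order between pools.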
